A study of Liolophura hirtosa with 16 samples.

Results

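Of the 493 chiton sequences on the arrays, 30 (6.09%) peaked by a set margin in the section of the radula that carries immature teeth. They were chosen from the measured values. A sequence was taken when its mean level in immature teeth lay at least 0.5 on the log2 scale above its mean in iron-deposited teeth, in calcium-deposited teeth and in foot muscle. A second clause, which removes sequences raised in all 3 sections and nearly even among them, left out 0 sequences. That these sequences are highest in immature teeth is therefore how they were found, and it is described here without a test.

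The radula is the feeding ribbon of a mollusc. In chitons its tooth rows are laid down at one end of the ribbon as a soft matrix of chitin and protein, and they harden while moving forward, first by iron oxides in the cusp and later by calcium minerals in the tooth core. Immature teeth are the rows before visible mineral, where the epithelium of the radula sac is known to secrete the organic scaffold on which mineral is later placed.

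The animals were wild adults of Liolophura hirtosa, named Acanthopleura hirtosa in the study's text, a chiton that was neither treated nor genetically altered. RNA of 12 animals was combined into pools of 3 animals, and each tissue (immature, iron and calcium sections of the radula sac, and foot muscle) was measured on 4 single-colour arrays, 16 arrays in all. Each tissue was a bulk sample of several cell types, so that fewer cells of a type and less RNA per cell cannot be told apart. The files paired no sequence with a gene name, so that the functions of the 30 are not given and the labelled tissues could not be checked against marker genes.

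A level is the log2 of a probe's foreground divided by the mean of its array, quantile-normalized and averaged over the probes of a sequence. A difference of 1 is thus a 2-fold difference. Over all sequences and tissues the median level was -1.40 and the lowest -2.20. The arrays held no background measurement, so that differences between dim levels may understate the difference in RNA by an unknown amount. Levels of different sequences or probes also depend on how well each probe binds, so that tests are made only between tissues for 1 sequence. A level is called dim or bright only by its place among the measured signals.

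The deposited sources disagreed on 4 arrays, which bears on every value of immature and calcium teeth. The authors' value table, on which the choice of the 30 rests, and the scanner files give replicates 2 and 4 of these tissues in exchange for each other. Across probes, Pearson's r between immature arrays was 0.973 to 0.990 in the value table, and between immature and calcium arrays 0.717 to 0.778. With the scanner files as recorded, these ranges were 0.745 to 0.979 and 0.720 to 0.988. Between calcium arrays r was 0.950 to 0.988 in the value table and 0.717 to 0.990 with the scanner files as recorded. Without the 4 disputed arrays, which left 2 immature arrays, all 30 sequences still met the rule. Their margins changed by between -0.14 and 0.09. The arrays left are among those that chose the 30, so that this outcome was largely fixed by the choice and is no separate support for it. With the scanner files as recorded, 0 of the 30 met the rule. Iron and foot muscle held no disputed array, so that the difference between them has the same value under either source, although the shared spread does not.

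The margin, the mean in immature teeth minus the highest of the other 3 tissue means, ran from 0.57 to 5.41 over the 30 sequences, with a median of 1.23. As folds of the normalized signal that is 1.48-fold to 42.5-fold, with a median of 2.34-fold. Where the other tissues lay near the median signal of the arrays, with no background measured, such a fold may understate the difference in RNA. The margin was at least 1 in 19 sequences and at least 2 in 6. Next after immature teeth came iron-deposited teeth in 15 sequences, foot muscle in 10 and calcium-deposited teeth in 5.

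The probes below stand for the 10 sequences with the largest margins. For each sequence the probe with its largest margin is shown, 5′ to 3′ as the files give it, to show what the arrays measured where no gene name was available.
Contig[0054]: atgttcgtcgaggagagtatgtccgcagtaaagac
Contig[0010]: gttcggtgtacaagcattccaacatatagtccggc
Contig[0067]: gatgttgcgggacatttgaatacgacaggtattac
Contig[0028]: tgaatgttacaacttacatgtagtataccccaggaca
plateD-C11-5SMART-primer: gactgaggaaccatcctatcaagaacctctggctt
Contig[0147]: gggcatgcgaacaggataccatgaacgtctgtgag
PlateC-D7-5-SMART: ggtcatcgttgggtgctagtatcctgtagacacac
Plate-C-E7-5-SMART: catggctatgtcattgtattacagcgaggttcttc
Plate-C-B1-5-SMART: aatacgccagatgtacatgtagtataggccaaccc
Contig[0044]: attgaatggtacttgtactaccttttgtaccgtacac
The first lies at bases 153 to 187 of a sequence of 819 nt and the second at bases 1258 to 1292 of 1697 nt. Positions are counted within the chiton sequence and are no genome coordinates.

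On the scanner's own scale these probes lay above the array medians in immature arrays of the value table. The Contig[0010] probe had 47954 to 62804 units there, against 657 to 1424 in iron, 438 to 957 in calcium and 213 to 400 in foot muscle arrays. The Contig[0054] probe had 25975 to 33042 units in immature arrays and no more than 492 on any other array. For comparison, the median foreground of an array lay between 200.1 and 426 units. The probe of PlateC-D7-5-SMART reached 14062 to 19124 units in immature arrays, against 351 to 832 over the other 12 arrays.

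**Figure D1:**
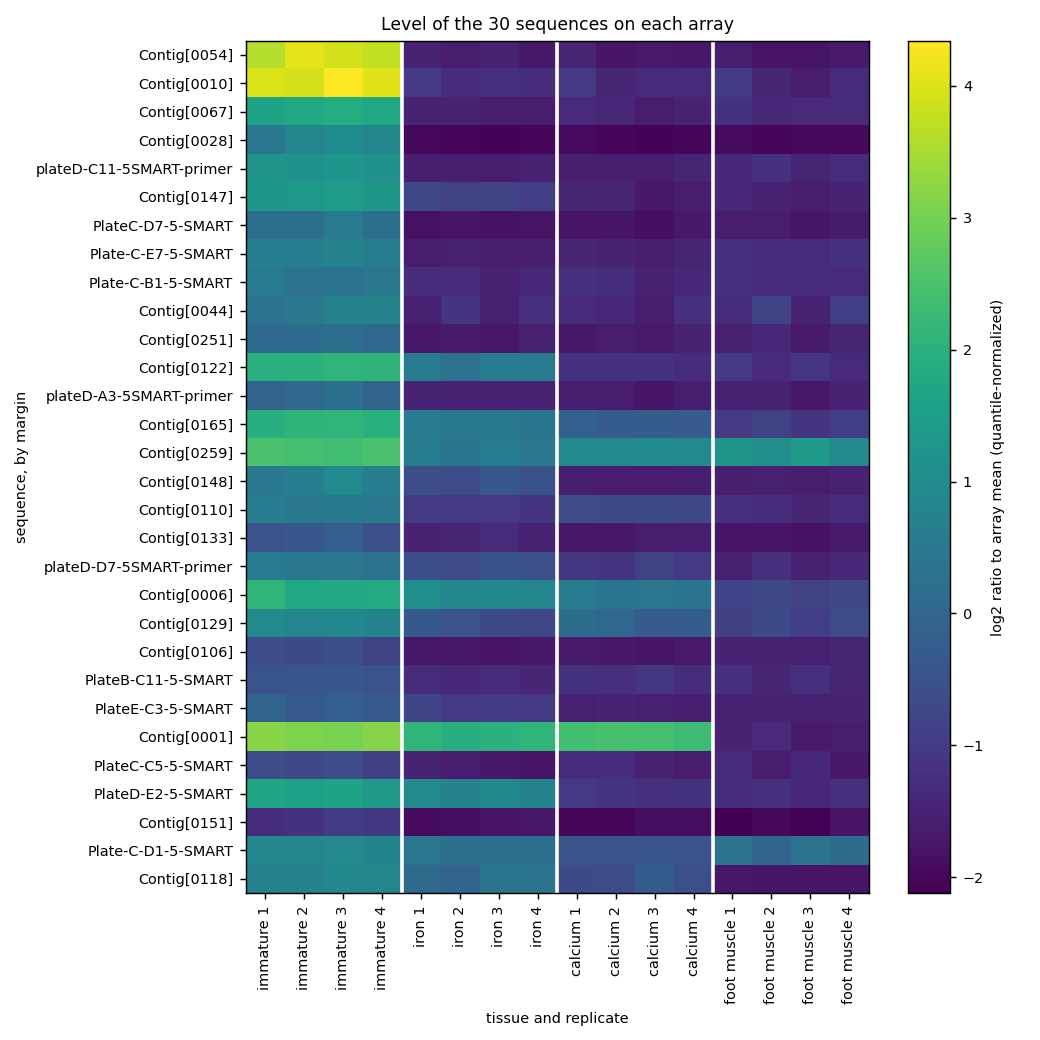
Level of each of the 30 sequences (rows, ordered by margin) on each of the 16 arrays (columns, by tissue and replicate of the value table), as log2 ratio to the array mean. The immature columns are the brightest in every row, and the rows differ in what follows: most are dim in the other 3 tissues, whereas others, such as PlateD-E2-5-SMART, are still bright in iron.

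All 4 immature arrays lay above all other 12 arrays in each of the 30 sequences. The same held for 8.11% of the 493 sequences, and since the rule used this contrast nothing is read from it. The gap between the lowest immature array and the highest other array ran from 0.28 in Contig[0118] to 5.09 in Contig[0054]. Replicates lay close together, with a median SD of 0.090 over the 30 sequences and 4 tissues and a highest of 0.33.

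Contig[0054] and Contig[0010] stood apart from the rest by the size of their margins, 5.41 and 5.28. Contig[0054] had levels of 3.63, 4.09, 3.89 and 3.76 on the immature arrays, -1.50, -1.61, -1.48 and -1.67 on iron, -1.45, -1.72, -1.65 and -1.71 on calcium, and -1.60, -1.74, -1.76 and -1.66 on foot muscle arrays. The signal in immature teeth was thus at least 42.5-fold above that in each other tissue, and the other 3 tissues overlapped one another. Contig[0010] had 3.99, 3.93, 4.34 and 4.05 on immature arrays, against -1.02, -1.31, -1.21 and -1.26 on iron, -1.02, -1.42, -1.33 and -1.35 on calcium and -0.99, -1.42, -1.63 and -1.35 on foot muscle arrays. It was at least 38.9-fold above each other tissue, with the same overlap among the others. Its probe shown above had an SD of 0 over the normalized immature arrays, since quantile normalization gives the same value to a probe of the same rank on each array. Without the disputed arrays the margins were 5.26 and 5.32, and with the scanner files as recorded -0.16 and -0.02.

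Contig[0067] followed with a margin of 3.06, or 8.35-fold. Its levels were 1.63, 1.77, 1.87 and 1.74 on immature arrays, and the other 12 arrays lay between -1.62 and -1.17. Contig[0028] had a margin of 2.75, with 0.47, 0.82, 1.02 and 0.81 on immature arrays and -2.06 to -1.94 elsewhere, near the lowest level on the arrays. The clone plateD-C11-5SMART-primer had 1.23, 1.14, 1.27 and 1.14 on immature arrays and -1.61 to -1.19 elsewhere. In these 3 sequences the means of iron and calcium lay at or below that of foot muscle.

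PlateC-D7-5-SMART, Plate-C-E7-5-SMART, Plate-C-B1-5-SMART and Contig[0044] had margins of 1.96, 1.94, 1.71 and 1.69, that is 3.89-fold, 3.84-fold, 3.27-fold and 3.22-fold. Contig[0044] rested on 2 probes and had the widest spread of the 30, with foot muscle arrays at -1.27, -0.78, -1.49 and -0.91 (mean ± SD -1.12 ± 0.33, n = 4). Its immature arrays, at 0.35, 0.45, 0.72 and 0.77, remained clear of these.

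**Figure D2:**
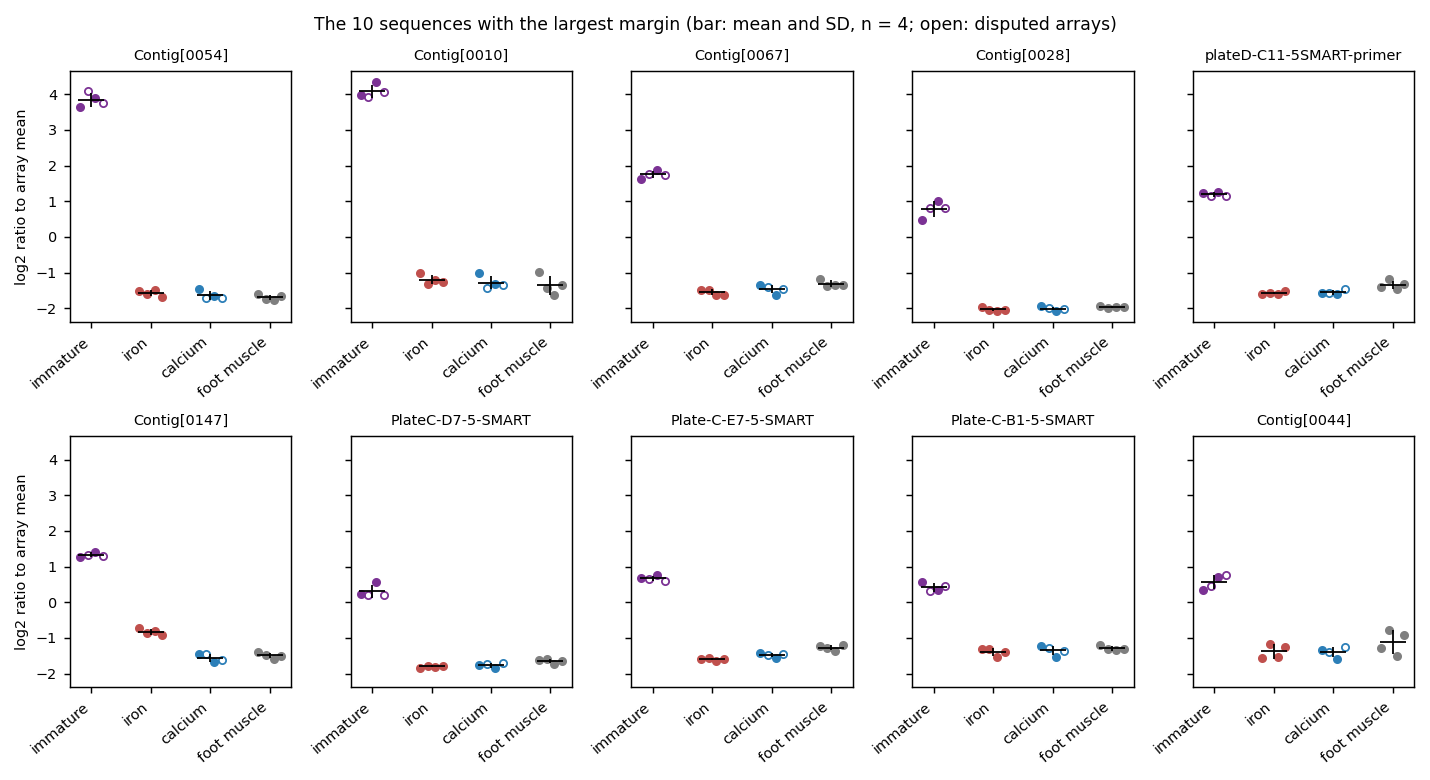
Level (log2 ratio to array mean) of the 10 sequences with the largest margin on each array, by tissue. Points are arrays, open points the 4 disputed arrays at the place the value table gives them, and bars the mean and SD (n = 4). Open and filled points of a tissue lie together, and Contig[0147] alone among the 10 is clearly raised in iron above calcium and foot muscle.

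The 30 sequences carried 137 probes, of which 125 had a margin of 0.5 or more when taken singly and 3 a margin below 0. All probes reached 0.5 in 19 sequences, and in the other 11 at least 1 probe did not. Outside the 30, 16 of 2103 probes reached 0.5. The rule averaged these same probes, and some probes of a sequence overlap in their bases. These counts thus follow largely from the choice, and nothing is read from them. Of the 12 member probes under 0.5, 9 lay at or below -1.15 in every tissue, and the other 3 were brighter. Plate-C-D1-5-SMART at bases 97 to 131 had 1.41 in immature and 1.93 in iron teeth, Plate-C-E7-5-SMART at bases 3 to 37 had 0.63 in immature teeth and 0.99 in foot muscle, and Contig[0118] at bases 249 to 283 had 1.04 in immature and 0.85 in iron teeth. The other probes of these 3 sequences peaked in immature teeth. Probes thus disagreed on the tissue of the peak in Plate-C-D1-5-SMART and Plate-C-E7-5-SMART, while in Contig[0118] they differed in the size of the margin.

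**Figure D3:**
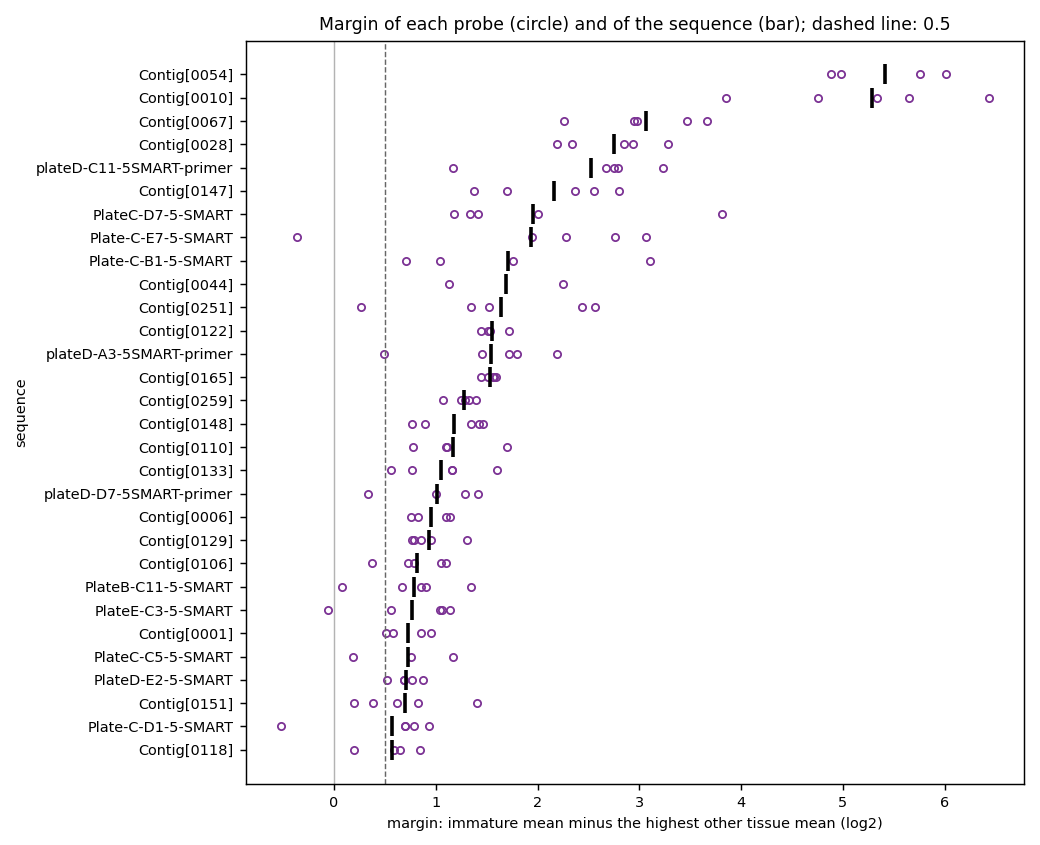
Margin (immature mean minus the highest other tissue mean, log2) of each probe, as circles, and of its sequence, as a bar. Sequences are ordered by margin and the dashed line marks 0.5. All circles of Contig[0054] lie between 4.89 and 6.01, while those of PlateC-D7-5-SMART spread from 1.18 to 3.81.

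Among the 30, 19 were named as contigs and 11 by clone, which makes 63.3% contigs, against 19.4% (90 of 463) among the other sequences. The median sequence length was 824.5 nt among the 30 and 595 nt among the others, with a range of 164 to 1697 nt among the 30. Probes of the 30 had a median GC content of 42.9%, from 30% to 54.3%, and those of the other sequences 41.7%, from 30% to 57.1%. These are descriptions of the set, with no test.

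A run of 16 or more bases in common with a probe of another sequence, searched on both strands, was found for 1 probe of the 30 sequences. It lies on Contig[0110] at bases 302 to 336 and shares 20 bases with a probe of Contig[0018] at bases 204 to 238, which is not among the 30. The pair is shown because the probes could pick up each other's transcript, with the shared run in capitals.
Contig[0110]: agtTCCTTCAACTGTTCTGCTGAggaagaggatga
Contig[0018]: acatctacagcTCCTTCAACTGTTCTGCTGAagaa
The Contig[0018] probe had 2.47 in immature, 2.28 in iron, 1.32 in calcium teeth and -0.39 in foot muscle. The Contig[0110] probe had 0.64, -0.73, -0.46 and -0.71 in the same order, lower in iron than in calcium where the other was higher. Its margin of 1.10 lay within the range of the remaining probes of Contig[0110], which was 0.77 to 1.70. Binding of one transcript to both probes was not tested.

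The differences among iron-deposited teeth, calcium-deposited teeth and foot muscle were not what the margin selected for. They are not fully free of the rule, since the margin holds all 3 means below that of immature teeth and the second clause reads them, although it removed no sequence. These 3 differences were tested with limma over all 493 sequences, and a sequence is called at a Benjamini-Hochberg adjusted p under 0.05. Many called differences were small, and calls of at least 0.5 are therefore also counted, a step added after the data were seen. Of the 30, 16 had no call of at least 0.5 in any of the 3 comparisons. Without the disputed arrays, where fewer calls were made over all sequences, the same 16 had none, which adds little. No call of any size was made in 9 of them, among them Contig[0054], Contig[0010], Contig[0028], PlateC-D7-5-SMART, Plate-C-B1-5-SMART and Contig[0044]. With the replicate number as a block, PlateC-C5-5-SMART and Contig[0151] of these 9 gained a call (limma adjusted p = 0.00495 for calcium against iron and 0.0117 for iron against foot muscle). In the 16, levels outside immature teeth lay between -2.03 and -1.12 and margins between 0.70 and 5.41. In such dim values a difference may go unseen, and a missing call does not show that the tissues were alike. The 16 included 9 of the 10 largest margins. The margin subtracts the highest other tissue mean, so that a sequence raised in iron or calcium has a smaller margin by definition. Nothing is therefore read from this count.

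Iron-deposited teeth were above foot muscle in 12 of the 30 sequences (40%), where 18.3% of all sequences were called in that direction. The median difference was 0.14 over the 30 and -0.14 over all sequences. With calls of at least 0.5 the count was 10 of 30 (33.3%), against 12.4% of all sequences. Without the disputed arrays, which hold no iron or foot muscle, the same 12 were called, and 4 of them with the scanner files as recorded.

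The probes below are from sequences that were still raised in iron, each with the largest margin of its sequence, and are shown because the differences described next include them.
PlateD-E2-5-SMART: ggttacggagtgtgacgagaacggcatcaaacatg
Contig[0122]: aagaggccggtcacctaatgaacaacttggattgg
Contig[0148]: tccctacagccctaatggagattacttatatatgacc
Contig[0118]: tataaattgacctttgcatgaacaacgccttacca
Contig[0001]: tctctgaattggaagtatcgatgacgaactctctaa

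Contig[0001] had the largest difference between iron and foot muscle of the 30. Its levels were 3.18, 3.09, 3.04 and 3.17 on immature arrays, 2.11, 1.92, 2.0 and 2.11 on iron, 2.40, 2.46, 2.43 and 2.30 on calcium and -1.49, -1.35, -1.65 and -1.59 on foot muscle arrays. All 12 radula arrays lay above all foot muscle arrays. Iron was 11.7-fold above foot muscle (log2 3.55, SE 0.064, limma adjusted p = 1.02e-16). Contig[0001] is thus a sequence of the whole radula with a moderate excess in immature teeth, 2.12-fold over iron and 1.65-fold over calcium.

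PlateD-E2-5-SMART was the sequence most raised in iron among those not called above foot muscle in calcium. It had 1.67, 1.55, 1.62 and 1.39 on immature arrays, 0.96, 0.78, 0.89 and 0.76 on iron, -1.05, -1.13, -1.26 and -1.18 on calcium and -1.29, -1.24, -1.38 and -1.26 on foot muscle arrays. Iron exceeded foot muscle 4.40-fold (log2 2.14, SE 0.064, limma adjusted p = 5.51e-14), and calcium minus iron was -2.0 (limma adjusted p = 1.98e-13). Calcium and foot muscle differed by 0.14 (limma adjusted p = 0.0908), which with the replicate number as a block became a call (limma adjusted p = 0.0415). Without the disputed arrays, calcium minus iron was -1.97.

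Contig[0122] made the same steps from a larger margin. Its levels were 1.98, 2.01, 2.11 and 2.09 on immature arrays, 0.53, 0.30, 0.60 and 0.54 on iron, -1.19, -1.16, -1.16 and -1.31 on calcium and -1.05, -1.34, -1.10 and -1.35 on foot muscle arrays. Each tissue lay clear of the next except calcium and foot muscle, which overlapped. The difference between iron and foot muscle was 1.70 (SE 0.075, limma adjusted p = 6.94e-12), and that between calcium and iron was -1.70 (limma adjusted p = 1.24e-11) or -1.65 without the disputed arrays.

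Contig[0148] lay at 0.46, 0.66, 0.94 and 0.65 on immature arrays, at -0.56, -0.62, -0.34 and -0.48 on iron, and between -1.62 and -1.53 on all calcium and foot muscle arrays. Iron was 2.11-fold above foot muscle and calcium was 2.13-fold below iron (log2 -1.09, limma adjusted p = 8.13e-09). Contig[0147], with 1.27, 1.33, 1.42 and 1.30 on immature and -0.72, -0.87, -0.80 and -0.92 on iron arrays, was 1.58-fold above foot muscle in iron and 1.66-fold lower again in calcium (limma adjusted p = 5.57e-08). PlateE-C3-5-SMART and Contig[0133] had the same calls with smaller differences, of 0.57 and 0.30 between iron and foot muscle. Contig[0133] is 1 of the 16 with no call of at least 0.5.

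Calcium-deposited teeth were below iron-deposited teeth in 11 of the 30 sequences (36.7%), against 14% of all sequences. With calls of at least 0.5 the count was 8 of 30 (26.7%), against 7.91%. Without the disputed arrays 10 of the 11 were called, all but Contig[0133] (log2 -0.23, limma adjusted p = 0.00987 in all arrays and 0.0591 without them). With the scanner files as recorded the count was 0. Of the 11, 10 were also called higher in iron than in foot muscle, and in 6 of those 10 calcium and foot muscle were not called different. The sharing of the iron arrays by these comparisons ties them together, so that their counts are not separate evidence.

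Calcium-deposited teeth were above foot muscle in 8 of the 30 (26.7%), against 12.8% of all sequences, with medians of -0.0013 over the 30 and -0.088 over all sequences. These medians were -0.066 and -0.034 under cyclic loess scaling, -0.20 and -0.29 under 75th percentile scaling, and -0.16 and -0.25 with the deposited ratio unscaled. With calls of at least 0.5 there were 6 (20%), against 8.32%. The same 8 were called without the disputed arrays, and 7 of them with the scanner files as recorded. In 4 of the 8 (Contig[0165], plateD-D7-5SMART-primer, Contig[0006] and Contig[0118]) every tissue was called below the one before it, in the order iron, calcium, foot muscle.

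Contig[0118], Contig[0006] and Contig[0165] are the clearest cases of this slope. Contig[0118] had 0.22 ± 0.20 in iron, -0.52 ± 0.21 in calcium and -1.75 ± 0.03 in foot muscle (mean ± SD, n = 4), with 0.79 ± 0.10 in immature teeth. Contig[0006] had 1.87 ± 0.17 in immature teeth, 0.91 ± 0.13 in iron, 0.43 ± 0.07 in calcium and -0.77 ± 0.06 in foot muscle. Contig[0165] had 2.03 ± 0.08, 0.49 ± 0.07, -0.21 ± 0.06 and -0.97 ± 0.12 in that order. In none of the 3 did arrays of 2 tissues overlap. Calcium exceeded foot muscle by 1.23, 1.20 and 0.76 (limma adjusted p = 3.46e-08, 1.73e-09 and 2.32e-08), and by 1.27, 1.22 and 0.79 without the disputed arrays.

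**Figure D4:**
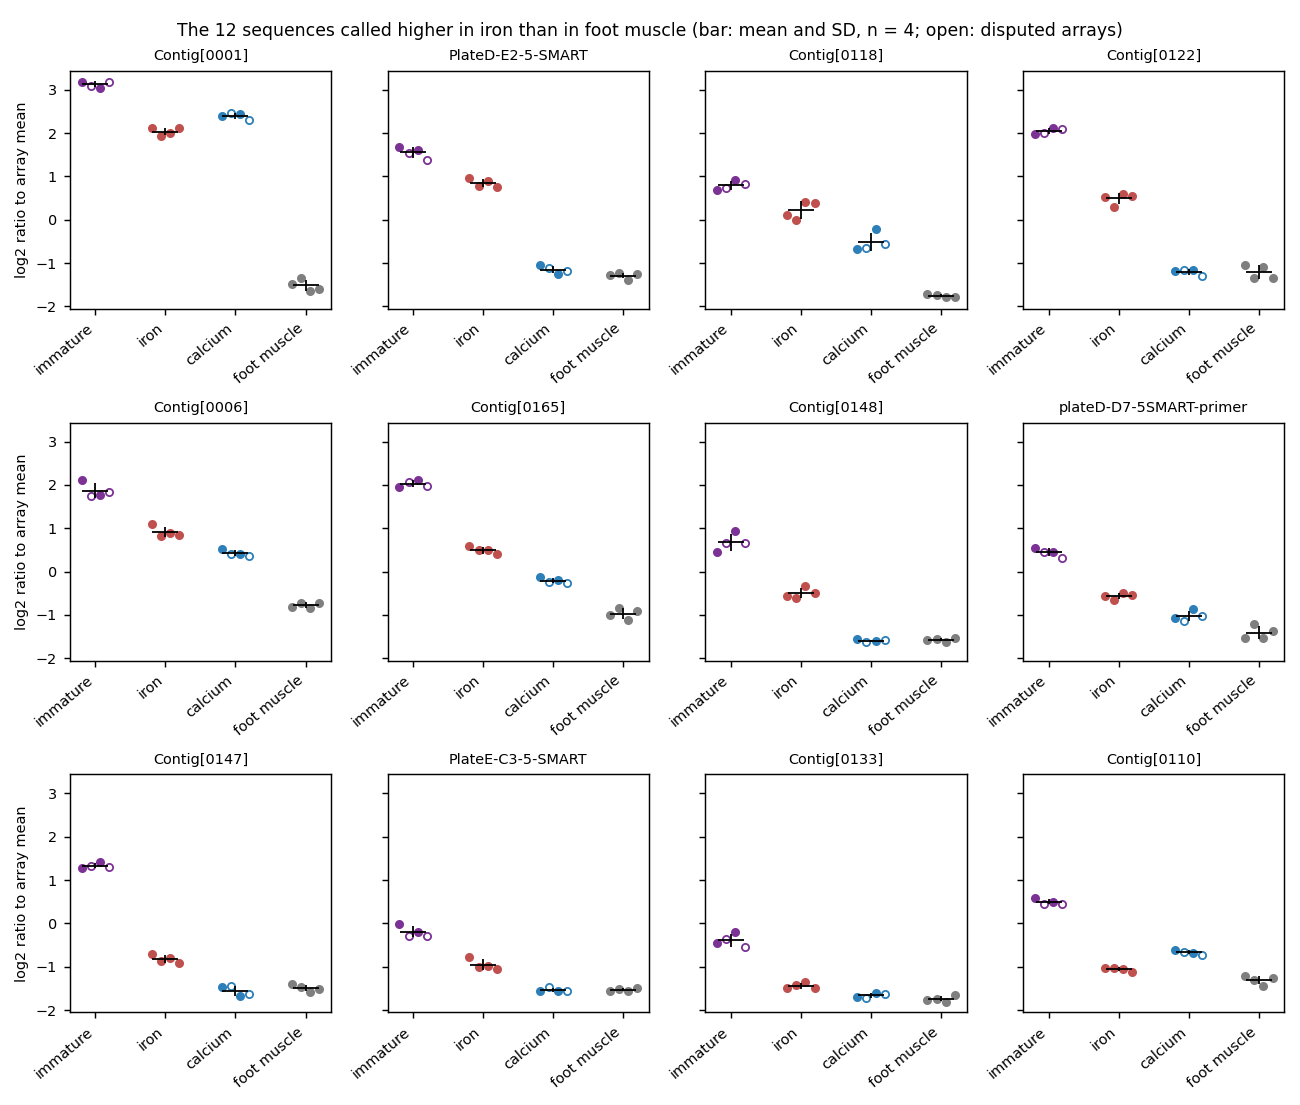
Level (log2 ratio to array mean) on each array of the 12 sequences called higher in iron than in foot muscle, ordered by that difference. Points are arrays, open points the 4 disputed arrays, and bars the mean and SD (n = 4). In PlateD-E2-5-SMART, Contig[0122] and Contig[0148] the calcium arrays overlap those of foot muscle. In Contig[0118], Contig[0006] and Contig[0165] calcium lies between iron and foot muscle.

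Calcium-deposited teeth were above iron-deposited teeth in 5 of the 30 (16.7%), close to the 19.7% of all sequences. With calls of at least 0.5 it was 1 of 30 (3.33%), against 9.74%. That 1 was Contig[0129], at 0.98, 0.83, 0.89 and 0.79 on immature, -0.35, -0.47, -0.70 and -0.75 on iron, 0.16, 0.04, -0.23 and -0.21 on calcium and -0.89, -0.66, -0.93 and -0.64 on foot muscle arrays. Its calcium arrays lay between the immature arrays and the others, with calcium above iron by 0.51 (SE 0.10, limma adjusted p = 0.000862) and by 0.52 without the disputed arrays. Iron and foot muscle overlapped (limma adjusted p = 0.0774), and with the replicate number as a block they were called different (limma adjusted p = 0.0390). Contig[0259], Contig[0110] and Contig[0001] were also lower in iron than in calcium, by 0.44, 0.39 and 0.36. The call was lost under cyclic loess scaling in Contig[0259] (0.21, limma adjusted p = 0.114) and with the deposited ratio unscaled in Contig[0110] (0.37, limma adjusted p = 0.113). The difference in Contig[0001] was not called under 3 other scalings, with limma adjusted p = 0.447 under cyclic loess (0.15), 0.0802 at the 75th percentile (0.49) and 0.0628 unscaled (0.43).

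Iron-deposited teeth were below foot muscle in 6 of the 30 (20%), against 51.7% of all sequences, and calcium-deposited teeth in 5 (16.7%), against 30.4%. These counts depended on the scaling: under cyclic loess they were 1 and 1, and with the deposited ratio unscaled 0 and 1. The counts over all 493 sequences moved too, from 255 and 150 to 59 and 40 under cyclic loess and to 37 and 15 unscaled. The distance of the 30 from all sequences in this direction is therefore not read as a result. Without the disputed arrays they were 6 and 4, with Contig[0259] no longer called for calcium (log2 -0.20, limma adjusted p = 0.133). With calls of at least 0.5 each was 1 of 30 (3.33%), against 9.74% of all sequences for iron and 5.27% for calcium. In iron it was Contig[0259], with 0.59, 0.39, 0.60 and 0.45 on iron and 1.22, 1.09, 1.37 and 0.98 on foot muscle arrays (log2 -0.66, SE 0.072, limma adjusted p = 8.20e-07). Its calcium arrays lay at 0.92 to 1.004, between most foot muscle arrays and iron, and its immature arrays stood at 2.48, 2.44, 2.36 and 2.5. With the deposited ratio unscaled this difference was -0.35 and not called (limma adjusted p = 0.0729).

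In calcium it was Plate-C-D1-5-SMART, at -0.46, -0.47, -0.43 and -0.46 on calcium arrays against a mean of 0.21 ± 0.17 (SD, n = 4) in foot muscle and 0.28 ± 0.09 (SD, n = 4) in iron. Calcium was below foot muscle by 1.59-fold (log2 -0.67, limma adjusted p = 4.89e-07) and below iron by 1.67-fold, while iron and foot muscle were not called different (limma adjusted p = 0.343). Without the disputed arrays calcium minus foot muscle was -0.65. As given above, 1 bright probe of this sequence peaked in iron. The 5 remaining sequences called lower in iron than in foot muscle (Contig[0067], plateD-C11-5SMART-primer, Plate-C-E7-5-SMART, Contig[0106] and Contig[0251]) had differences of -0.33 to -0.15.

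**Figure D5:**
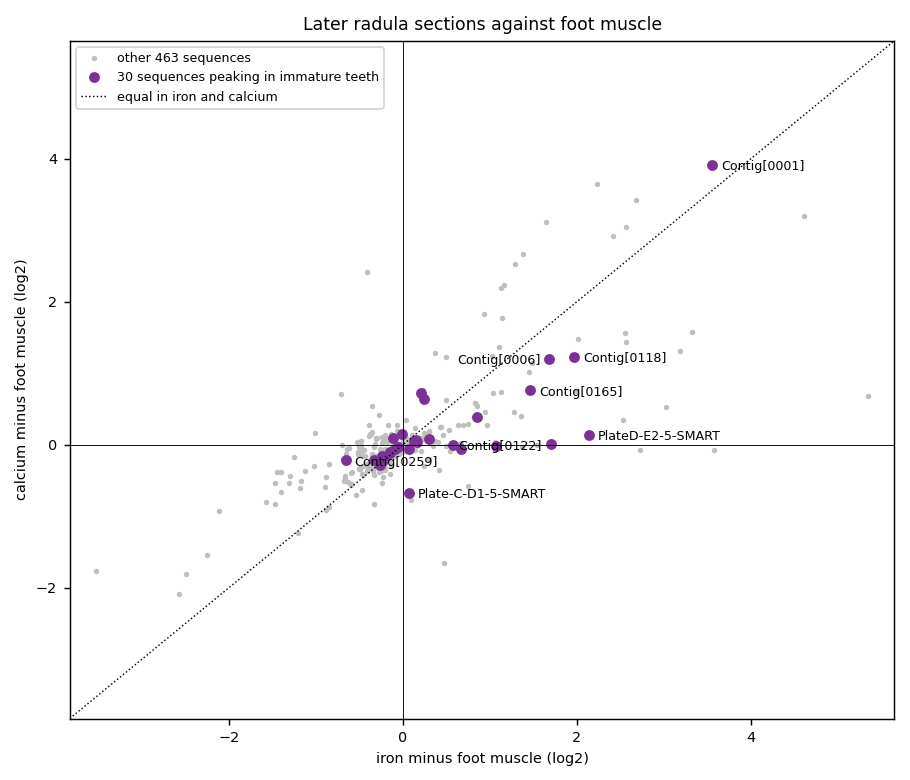
Iron minus foot muscle (horizontal) and calcium minus foot muscle (vertical), as log2 differences of tissue means, for the 30 sequences and the other 463. The dotted line marks equal levels in iron and calcium, and the 2 axes share the foot muscle arrays. Most of the 30 lie near 0 on both axes, and those raised in iron lie mostly below the dotted line, with Contig[0001] above it.

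Close to the threshold, the 3 sequences with the smallest margins inside it were Contig[0151] with 0.70, Plate-C-D1-5-SMART with 0.57 and Contig[0118] with 0.57. Just outside lay Contig[0155] with 0.49, G-F7-5-SMART with 0.46 and Contig[0119] with 0.45. Contig[0155] entered without the disputed arrays, with a margin of 0.55. With a margin of 1 in place of 0.5, 19 sequences were left. The list also moved with the scaling. With the deposited ratio unscaled, 27 sequences met the rule, all of them among the 30. Under cyclic loess scaling 33 met it, with all 30 among them.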

How the data were processed

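RNA from 3 radula sections and foot muscle was hybridised to 16 single-colour arrays, grouped by sample title. The members and comparisons were chosen with earlier results of these data known. The deposited value table held a ratio, each probe's mean foreground divided by the array mean, as found by setting its columns against the scanner tables. Per the file headers, those tables held the mean and median foreground intensity of 2240 spots, with no background column. The scanner software is not stated in the labels. Each value table column matched 1 scanner file, and 4 columns matched the file of another tissue.

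Ratios were log2-transformed, quantile-normalized and averaged per sequence, and the rule was applied to tissue means. Differences among iron, calcium and foot muscle were tested with limma 3.58.1 (R 4.3.3; lmFit, eBayes, two-sided) on all 16 arrays with a mean per tissue, and p-values were adjusted by Benjamini-Hochberg over all 493 sequences in each comparison. The fit was tried on simulated data with independent noise on each array. These held no effect shared by same-numbered arrays, so that they do not bear on the pairing given below. The main fit held no replicate block, although replicate numbers paired the arrays by the criterion given below. Its p-values measure the spread between pools with any effect shared by same-numbered arrays left in. Counts with the replicate number as a block are given at the end. The number of arrays limits the precision, and no depth applies. Named were the 10 largest margins, the 4 largest called differences per direction and comparison without overlap between arrays, the 3 sequences on each side of the threshold, those sharing 16 or more bases, and beside these a few chosen after their values were seen.

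Replicate numbers paired the arrays by the fixed criterion: deviations from the tissue means correlated at 0.263 to 0.772 between same-numbered arrays in the 3 comparisons, all over 0.1. Whether same-numbered pools held the same animals was not stated. Figures were drawn with matplotlib 3.10.9. No column was left unmapped.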

Additional observations from a re-analysis of the deposited data

Results flagged for a closer look

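In 4 of 88 groups of 4 arrays, over the 22 sequences named for their margin or a called difference, 1 array stood far from the other 3 by Dixon's criterion. Chance gives about 1 in 20 groups. Contig[0067] had -1.17 on foot muscle replicate 1, with the other 3 between -1.37 and -1.35. Plate-C-B1-5-SMART had -1.20 on the same array, with the nearest other at -1.32. PlateC-D7-5-SMART had 0.57 on immature replicate 3, against 0.21 to 0.22 on the others, and this array is not disputed. Contig[0259] had 1.004 on calcium replicate 3, with the others between 0.92 and 0.93.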

How the results depend on the processing

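Of 309 recomputed counts, 275 stayed within 1.5 times. With the scanner files as recorded, 0 sequences met the rule, calcium against iron gave 58 calls, and members called higher and lower were 4 and 0 (iron against foot muscle), 0 lower (calcium against foot muscle), and 2 and 0 (calcium against iron). There, calcium minus foot muscle reversed in plateD-C11-5SMART-primer (1.11), Plate-C-E7-5-SMART (0.83) and Contig[0106] (0.26), and calcium minus iron in Contig[0148] (0.034), none called. Calls over all sequences, 345, 213 and 166 for iron against foot muscle, calcium against foot muscle and calcium against iron, became 159 and 101 in the first 2 under cyclic loess, 98, 55 and 102 unscaled, 61 and 107 in the last 2 under 75th percentile scaling, and 221 and 121 in the first 2 with the median of probes.

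The share of these calls that were higher moved with scaling. It was 26.1%, 29.6% and 58.4%, then 62.9%, 60.4% and 42.5% under loess, 62.2%, 72.7% and 57.8% unscaled, and 16.8%, 63.9% and 57.0% at the 75th percentile, where the median of all sequences moved from -0.14 to -0.48 for iron against foot muscle. Members called lower than foot muscle in iron and in calcium, 6 and 5, were 1 and 1 under loess, 0 and 1 unscaled, and for calcium 1 at the 75th percentile and 2 with the median of probes. Members higher in calcium than iron, 5, were 3 at the 75th percentile, 2 under loess and 2 unscaled. Among members with a margin of at least 1 (19), higher and lower calls were 7 in iron (higher), 3 and 3 in calcium against foot muscle, and 2 and 6 in calcium against iron. The cause of these changes was not tested, apart from the smaller list in the last.

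With 1 array left out, members numbered 29 to 31, calls 298 to 353, 160 to 236 and 156 to 168, and members called higher and lower 12 to 13 and 5 to 7, 7 to 8 and 4 to 6, and 4 to 6 and 11 to 11, in the same order. With the replicate number as a block, calls were 396, 305 and 203, and members called 14 and 6, 9 and 5, and 6 and 11. The 4 calls it added are given above, and it ended none. Of 24 named differences, 8 were called in all 30 alternatives, and no alternative other than the recorded files reversed one.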
